A study of Mus musculus with 6 samples.

Results

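The SNARE proteins, which pull a vesicle and its target membrane together until they fuse, were examined with their regulators in inflamed mouse skin labelled as having a VAMP7 conditional knockout in basophils. Members were picked by gene symbol alone: every gene in the table with a numbered Vamp, Stx, Stxbp or Snap symbol, the Vti1, Gosr, Sec22 and Bet1 genes, Napa, Napb and Napg, and Ykt6, Nsf and Unc13d. This gave 50 of 18939 genes. Snap91 encodes a clathrin adaptor and Sec22a and Sec22c encode relatives of Sec22b, so these came in by name.

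The libraries were made from messenger RNA of skin, 3 labelled CKO, the basophil VAMP7 knockout (replicates 1, 2 and 5), and 3 titled FLOX with a wild-type genotype label (replicates 2, 3 and 5). Both groups belong to an MC903-OVA model by the series title. MC903, also known as calcipotriol, inflames mouse skin when applied to it, and OVA is the usual short form of ovalbumin, a protein antigen. The promoter that drives Cre, the strain and the age of the mice are not stated by the labels. Values are FPKM, fragments scaled by transcript length and library size, so that levels can be compared between genes; the read depth behind them is unknown. Each group has n = 3 libraries, and values of a group are given in the order of its replicate numbers.

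A SNARE complex is a bundle of helices. An R-SNARE, usually on the vesicle, is joined by Qa, Qb and Qc helices on the target membrane, and a Snap25-type protein supplies both Qb and Qc. SM proteins clasp the syntaxins, and the ATPase NSF with its adaptor alpha-SNAP takes used complexes apart. VAMP7 is an R-SNARE of late endosomes, lysosomes and secretory granules. It pairs with Stx3 or Stx4 and Snap23 at the plasma membrane and with Stx7, Stx8 and Vti1b on endosomes. In mast cells and basophils such complexes release histamine-bearing granules.

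No SNARE or regulator gene passed the test between CKO and FLOX skin. Of the 50 members, 43 reached 1 FPKM in at least 3 libraries and were tested. The limma test with Benjamini-Hochberg adjustment over all genes called 0 of these at an adjusted p of 0.05, against 0.954% of the 12994 genes tested (0.354% higher and 0.600% lower in CKO skin). That background ran from 0 to 417 genes when 1 library was left out, against 124 with all 6. The smallest limma adjusted p over all tested genes was 0.047, so every called gene lay close to the threshold. At an unadjusted p under 0.05 there were 6 members, or 14.0%, against 21.6% of all tested genes. Lower means in CKO skin were found for 5 of them, Snap23, Nsf, Stx7, Stxbp3 and Stx11 (11.6%, against 8.94%), and a higher mean for 1, Stx19 (2.33%, against 12.6%). The CKO and FLOX values did not overlap for 13 members, or 30.2%, close to the 27.0% of all tested genes. Of these, 9 were lower in CKO skin (20.9%, against 11.4% of all tested genes) and 4 were higher (9.30%, against 15.5%). The median log2 fold change, taken as CKO minus FLOX of log2(FPKM + 1), was -0.05 over tested members and 0.03 over all tested genes. It was negative for 28 members and positive for 15. Without FLOX replicate 3 the median was 0.001, with 21 negative and 22 positive. The 95% interval of the fold change lay within 0.5 of 0 for 38 of the 43.

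**Figure D1:**
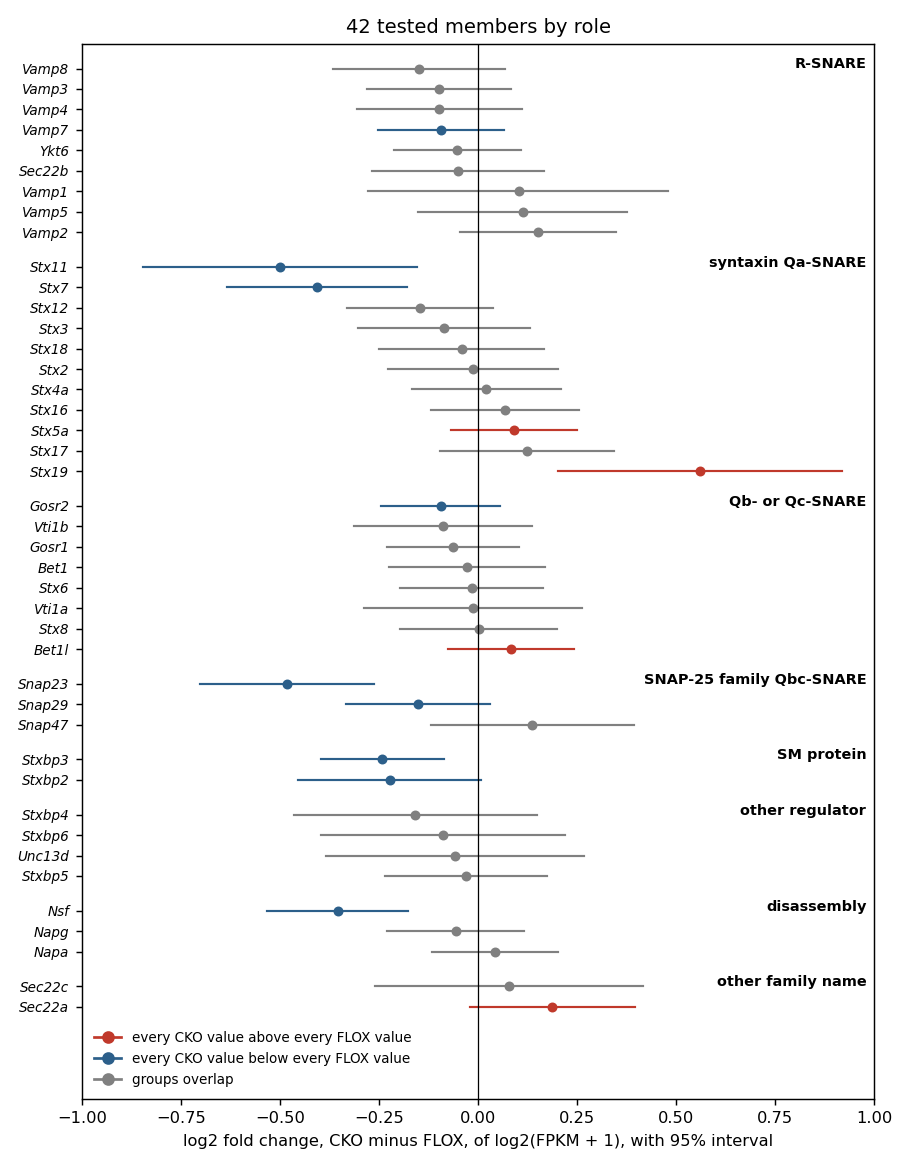
Log2 fold change of 42 of the 43 tested members, CKO minus FLOX, on the log2(FPKM + 1) scale, with limma's 95% interval, grouped by role. Red marks members with every CKO value above every FLOX value, blue the reverse and grey overlapping groups; 36 of the 42 intervals drawn include 0.

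CKO replicate 2 was the lowest of the 6 libraries for 16 of the 43 tested members (37.2%, against 24.9% of all tested genes), and FLOX replicate 3 the highest for 15 (34.9%, against 19.3%). All genes together summed to 556412 FPKM in CKO replicate 2, against 584274 to 594987 FPKM in the other libraries. The reported fit did not rescale the libraries. With median-ratio scaling the median log2 fold change was -0.089 over tested members and -0.011 over all tested genes. The part of the library total in the members' values was not tested. Keratinocyte genes such as Krt14 and Krt5 were abundant in this tissue, labelled skin. The summed FPKM of 5 keratinocyte markers ran from 6804 to 9349 in CKO and from 5381 to 5961 in FLOX libraries, with none of the 5 called. Krt1 and Krt10 differed most, with means of 1646 and 1239 FPKM in CKO, against 844.4 and 471.9 FPKM in FLOX libraries. Krt14, the most abundant of the 5, overlapped between the groups (means of 3946 FPKM in CKO and 3583 FPKM in FLOX libraries). For 6 neutrophil markers the sums were 2539 to 3378 FPKM in CKO libraries, against 4391 to 6088 FPKM in FLOX libraries, with 5 of the 6 genes called lower. S100a8 and S100a9 held most of these sums, with means of 1622 and 1148 FPKM in CKO, against 2917 and 2310 FPKM in FLOX libraries. S100a8 was not called (limma adjusted p = 0.0667). Ly6g averaged 0.54 FPKM in CKO and 2.12 FPKM in FLOX libraries. For 5 macrophage markers the sums were 930.0 to 1122 FPKM in CKO and 1242 to 1387 FPKM in FLOX libraries, with none called. For 5 basophil markers they were 36.8 to 52.8 FPKM in CKO and 111.2 to 152.8 FPKM in FLOX libraries, with 2 called lower. For 10 skeletal muscle markers the sums were 531 to 1425 FPKM in CKO libraries, against 181 to 407 FPKM in FLOX libraries, with 1 called higher. Schwann cell sums (4 markers, 1 called higher) and mast cell sums (4 markers, none called) were also higher in every CKO library than in any FLOX library, at 64.0 to 80.5 FPKM in CKO and 45.1 to 50.7 FPKM in FLOX libraries and at 397 to 448 FPKM in CKO and 286 to 374 FPKM in FLOX libraries. T cell, adipocyte, fibroblast and axon sums overlapped, with none called. No marker in these lists was at 0 in every library. In bulk skin, fewer cells of a type and less RNA per cell cannot be told apart. The part of cell makeup in the values of Snap23, Stx7, Stx11, Nsf, Stxbp3 and Stx19 was not tested.

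Vamp7 itself (NCBI Gene ID 20955) was measured at 19.71, 19.11 and 19.73 FPKM in CKO libraries, against 20.40, 21.51 and 20.77 FPKM in FLOX libraries. Every CKO value was below every FLOX value, by little. The log2 fold change was -0.09 (SE 0.07, 95% interval -0.25 to 0.07), with a limma adjusted p = 0.475. Permuting the library labels exactly and two-sided gave p = 0.1, the smallest value that 3 against 3 allow. The label places the deletion in basophils, while every cell of the skin contributes to this level, so this level is a weak check of the label. RefSeq (GRCm38.p6) also lists a pseudogene, Vamp7-ps, and the value is uncertain to the extent that reads are shared with it.

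Among R-SNAREs, Vamp7 ranked in the middle. Vamp8, the endosomal R-SNARE that serves granule secretion in mast cells and platelets, was the most abundant of the 50 members, at 288.81, 245.16 and 272.04 FPKM in CKO libraries, against 297.50, 316.43 and 279.71 FPKM in FLOX libraries. It stood 12.8 to 14.7 times above Vamp7 in each library, and its groups overlapped. Vamp3, of recycling endosomes, measured 73.96, 73.23 and 80.47 FPKM in CKO libraries, against 86.27, 80.41 and 77.49 FPKM in FLOX libraries. Ykt6, a lipid-anchored R-SNARE, measured 66.60, 64.35 and 69.83 FPKM in CKO libraries, against 69.61, 70.61 and 68.10 FPKM in FLOX libraries. Both overlapped between the groups, and CKO replicate 2 was the lowest library for each.

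Sec22b, which works between endoplasmic reticulum and Golgi, measured 30.41, 34.16 and 28.93 FPKM in CKO libraries, against 30.08, 31.78 and 35.14 FPKM in FLOX libraries, with no order between the groups. Vamp2, the synaptic vesicle R-SNARE, was the R-SNARE nearest to Vamp7. It measured 20.58, 18.08 and 19.18 FPKM in CKO libraries, against 16.01, 17.57 and 18.20 FPKM in FLOX libraries. In CKO libraries the Vamp2 and Vamp7 values overlapped, with Vamp2 above Vamp7 in replicate 1, while in FLOX libraries every Vamp2 value was below every Vamp7 value. Vamp2 was one of the 6 members with the largest positive fold changes (0.15, SE 0.09, limma adjusted p = 0.351), with overlapping groups. Below it came Vamp4 of the trans-Golgi network (means of 11.9 ± 0.567 FPKM in CKO libraries, against 12.8 ± 1.16 FPKM in FLOX libraries, SD), then Vamp5 and Vamp1. Vamp5, known from muscle as myobrevin, measured 3.68, 3.49 and 3.20 FPKM in CKO libraries, against 2.64, 3.62 and 3.16 FPKM in FLOX libraries (log2 fold change 0.11, SE 0.11, limma adjusted p = 0.626). Skeletal muscle markers differed between the groups in the same libraries, as given above, and their part in this value was not tested. Vamp1 measured between 0.57 and 1.33 FPKM. Over the 9 R-SNAREs the 95% intervals of the log2 fold change ran from -0.37 to 0.48, the widest being that of Vamp1.

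Vamp7 made up 3.82%, 4.06% and 3.89% of the summed FPKM of the 9 R-SNARE genes in CKO libraries and 3.80%, 3.86% and 4.04% in FLOX libraries. The groups overlapped, and the means were 3.92 ± 0.126% and 3.90 ± 0.121% (SD; exact two-sided permutation p = 0.7). The difference of 0.0246 percentage points turned to -0.045 without CKO replicate 2 and to -0.024 without FLOX replicate 2.

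**Figure D2:**
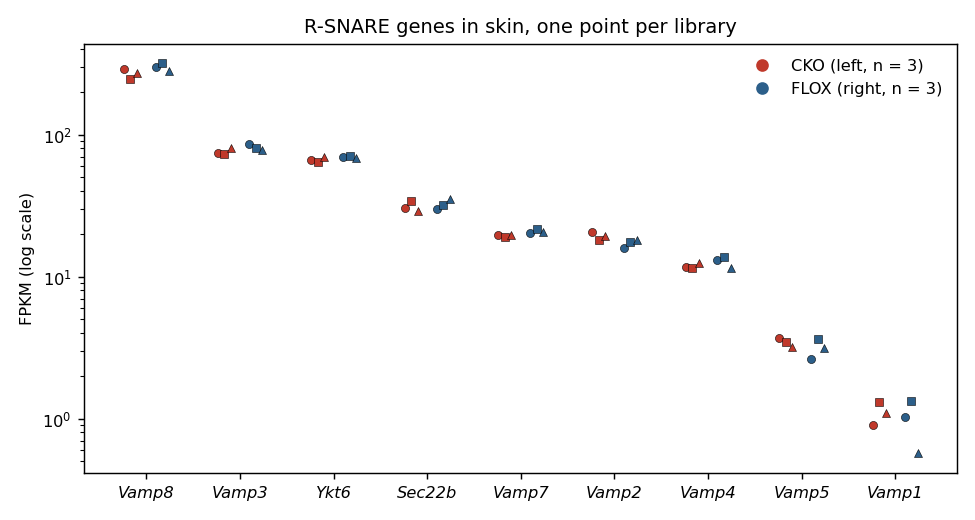
FPKM of the 9 R-SNARE genes on a log axis, 1 point per library, with CKO on the left (circle, square and triangle for replicates 1, 2 and 5) and FLOX on the right (replicates 2, 3 and 5). Vamp8 stands above all others, Vamp7 and Vamp2 are next to each other near 20 FPKM, and CKO and FLOX points overlap for every gene but Vamp7.

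Of the plasma membrane partners of VAMP7, Snap23 (NCBI Gene ID 20619), the Snap25-type SNARE of non-neuronal cells and of mast cell degranulation, had the smallest p of the members. It measured 59.99, 47.98 and 52.92 FPKM in CKO libraries, against 74.35, 77.85 and 72.95 FPKM in FLOX libraries, means of 53.6 ± 6.04 and 75.0 ± 2.52 FPKM (SD). Every CKO library was below every FLOX library. The log2 fold change was -0.48 (SE 0.09, 95% interval -0.70 to -0.26). The limma adjusted p of Snap23, 0.0526, missed the threshold, and the smallest of any tested gene was 0.047. Snap23 passed with median-ratio scaling of the libraries (adjusted p = 0.049) and without CKO replicate 1 (0.0494), and its adjusted p ran from 0.049 to 0.162 over 14 alternatives. Snap29, which acts in autophagy and whose loss in humans causes a keratinization disorder, measured 17.60, 18.12 and 17.82 FPKM in CKO libraries, against 19.27, 21.64 and 18.95 FPKM in FLOX libraries. These groups were also apart. Snap47 measured 9.37, 10.09 and 7.62 FPKM in CKO libraries, against 7.72, 7.94 and 8.56 FPKM in FLOX libraries (log2 fold change 0.14, SE 0.11, limma adjusted p = 0.523), and its groups overlapped.

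The plasma membrane syntaxins had overlapping groups. Stx3, a target of granules and of apical membrane traffic, measured 10.50, 13 and 11.66 FPKM in CKO libraries, against 12.93, 11.95 and 12.49 FPKM in FLOX libraries. Stx4a, the symbol in the table for syntaxin 4, measured 51.67, 51.49 and 55.20 FPKM in CKO libraries, against 55.04, 53.41 and 47.76 FPKM in FLOX libraries. The 95% intervals of their log2 fold changes were -0.30 to 0.13 for Stx3 and -0.17 to 0.21 for Stx4a. Stx2 lay between 7.96 and 9.52 FPKM in all 6 libraries.

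Of the endosomal partners, Stx7 had groups apart, while Stx8 and Vti1b did not. Stx7, the Qa-SNARE of late endosomes, measured 66.70, 54.04 and 61.33 FPKM in CKO libraries, against 74.99, 85.12 and 81.64 FPKM in FLOX libraries. Each CKO library was below each FLOX library, with CKO replicate 2 lowest and FLOX replicate 3 highest. The log2 fold change was -0.41 (SE 0.10, limma adjusted p = 0.0728, from 0.0596 to 0.18 over 14 alternatives). Stx8, the Qc-SNARE of the same complex, measured 35.81, 30.14 and 32.18 FPKM in CKO libraries, against 32.74, 33.87 and 31.21 FPKM in FLOX libraries. Vti1b, its Qb-SNARE, measured 82.41, 66.20 and 78.96 FPKM in CKO libraries, against 77.90, 83.56 and 79.66 FPKM in FLOX libraries. Stx8 and Vti1b overlapped between groups, and their 95% intervals were -0.20 to 0.20 and -0.31 to 0.14. Stx12, of recycling endosomes, was the member second to Vamp8 in level, at 81.06, 77.16 and 88.57 FPKM in CKO libraries, against 90.10, 88.27 and 94.71 FPKM in FLOX libraries, with CKO replicate 5 just above FLOX replicate 3.

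Nsf (NCBI Gene ID 18195), the ATPase that recycles SNAREs, measured 17.96, 16.86 and 17.71 FPKM in CKO libraries, against 23.84, 23.03 and 21.17 FPKM in FLOX libraries, means of 17.5 ± 0.577 and 22.7 ± 1.37 FPKM (SD). The groups were apart, with the CKO libraries closer to each other than the FLOX libraries. The log2 fold change was -0.35 (SE 0.08, limma adjusted p = 0.0639, from 0.0545 to 0.265 over 14 alternatives). The adaptors that bring NSF to the complex had overlapping groups. Napa, which encodes alpha-SNAP, had means of 60.4 ± 2.14 FPKM in CKO libraries, against 58.6 ± 1.61 FPKM in FLOX libraries, and Napg 10.3 ± 0.404 and 10.7 ± 0.271 FPKM (SD).

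Promoters are shown for Snap23, Nsf and Stx7, the 3 members with the smallest p, all lower in every CKO library than in any FLOX library. The windows run from 250 bases before to 50 bases after the start of transcription, as given by RefSeq on GRCm38.p6, at chr2:120567421-120567720 (plus strand), chr11:103954007-103954306 (minus strand) and chr10:24149039-24149338 (plus strand, the first of a pair of windows listed for Stx7). Capitals mark matches on either strand to 5 motifs: the CCAAT box, the E-box CACGTG, the GC box GGGCGG, the ETS site CCGGAAG and the cyclic AMP response element TGACGTCA.
Snap23: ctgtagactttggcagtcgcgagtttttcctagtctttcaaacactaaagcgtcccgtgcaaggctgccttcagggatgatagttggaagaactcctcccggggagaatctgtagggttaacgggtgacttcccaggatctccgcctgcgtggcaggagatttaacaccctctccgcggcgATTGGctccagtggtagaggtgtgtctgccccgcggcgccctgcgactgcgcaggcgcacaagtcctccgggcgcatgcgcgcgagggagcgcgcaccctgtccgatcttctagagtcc
Nsf: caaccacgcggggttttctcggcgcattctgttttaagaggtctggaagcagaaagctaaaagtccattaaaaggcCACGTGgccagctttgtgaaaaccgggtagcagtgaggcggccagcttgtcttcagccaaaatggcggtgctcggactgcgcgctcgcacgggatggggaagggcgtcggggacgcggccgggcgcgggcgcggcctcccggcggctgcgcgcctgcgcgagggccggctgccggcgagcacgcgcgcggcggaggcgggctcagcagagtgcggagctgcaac
Stx7: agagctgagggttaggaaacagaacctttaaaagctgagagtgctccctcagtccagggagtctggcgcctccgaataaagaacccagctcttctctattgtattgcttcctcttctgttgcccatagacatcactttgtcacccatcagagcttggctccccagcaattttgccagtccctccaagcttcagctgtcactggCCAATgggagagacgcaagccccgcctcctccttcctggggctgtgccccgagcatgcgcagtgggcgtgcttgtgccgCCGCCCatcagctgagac
The matches differed between the 3. Snap23 held 1 CCAAT box, read on the opposite strand as ATTGG, Stx7 held 1 CCAAT box and 1 GC box, and Nsf held 1 E-box and none of the other motifs. A promoter window was found for 42 of the 50 members, Vamp7 not among them. These 42 include members that were not tested, such as Stx1a and Napb, while the shares set against them are of tested genes only. The CCAAT box was present for 18 members (42.9%), against 42.5% of the 10390 tested genes with a window, and the GC box for 30 (71.4%), against 66.3%. The E-box was present for 6 (14.3%, against 11.6%), the ETS site for 7 (16.7%, against 19.2%) and the cyclic AMP response element for 3 (7.14%, against 3.35%). These are matches of letters, and nothing was measured about binding.

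Of the SM proteins, Stxbp3 and Stxbp2 had groups apart. Stxbp3, the partner of syntaxin 4, measured 49.28, 48.11 and 50.38 FPKM in CKO libraries, against 56.61, 59.66 and 59.07 FPKM in FLOX libraries. The groups were apart by more than either group's own range (log2 fold change -0.24, SE 0.07, limma adjusted p = 0.0922). RefSeq lists a transcribed pseudogene, Stxbp3-ps, so reads could be shared. Stxbp2, the partner of Stx3 and Stx11, measured 32.41, 27.14 and 32.65 FPKM in CKO libraries, against 38.80, 35.79 and 33.37 FPKM in FLOX libraries (log2 fold change -0.22, SE 0.10, limma adjusted p = 0.246). The groups were apart by less than 1 FPKM.

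STX11, STXBP2 and UNC13D form a granule release pathway of cytotoxic lymphocytes that is disrupted in human familial hemophagocytic lymphohistiocytosis, and Unc13d also primes granules in mast cells and neutrophils. Stx11 measured 11.24, 12.14 and 13.50 FPKM in CKO libraries, against 20.02, 13.88 and 20.12 FPKM in FLOX libraries. Its fold change was the most negative among the tested members (log2 -0.50, SE 0.15, limma adjusted p = 0.11). FLOX replicate 3 lay beside the CKO values, though the groups did not overlap. Unc13d measured 2.99, 2.43 and 2.58 FPKM in CKO libraries, against 2.76, 3.54 and 2.24 FPKM in FLOX libraries, with overlap and a 95% interval of -0.38 to 0.27 for its log2 fold change.

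Stx19, a syntaxin of epithelia without a transmembrane domain, had the most positive fold change of the tested members. It measured 4.16, 5.25 and 6.35 FPKM in CKO libraries, against 3.82, 2.73 and 3.12 FPKM in FLOX libraries. The groups were apart by less than 1 FPKM, between CKO replicate 1 and FLOX replicate 2 (log2 fold change 0.56, SE 0.15, limma adjusted p = 0.0923, from 0.071 to 0.227 over 13 alternatives). Sec22a measured 15.37, 15.29 and 18.11 FPKM in CKO libraries, against 14.23, 14.58 and 13.55 FPKM in FLOX libraries (log2 fold change 0.19, SE 0.09, limma adjusted p = 0.276), with groups apart and CKO replicate 5 highest. Stx17, of autophagosomes, measured 6.70, 5.93 and 6.14 FPKM in CKO libraries, against 5.13, 6.18 and 5.69 FPKM in FLOX libraries (log2 fold change 0.12, SE 0.09, limma adjusted p = 0.498), with overlap.

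**Figure D3:**
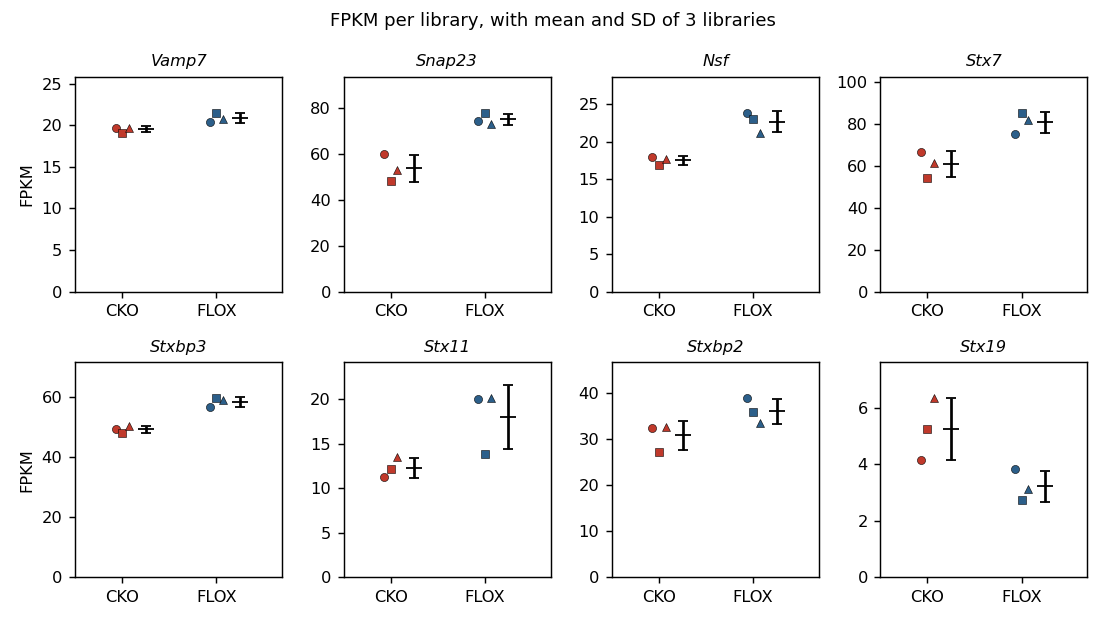
FPKM of Vamp7 and 7 other members in each library (circle, square and triangle for CKO replicates 1, 2 and 5 and FLOX replicates 2, 3 and 5), with the mean and SD of 3 libraries beside the points; each panel has its own axis from 0. Snap23, Nsf, Stx7 and Stxbp3 have CKO points below FLOX points, Vamp7 shows a narrow gap, and Stx19 is the 1 panel with CKO above FLOX.

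Golgi and endoplasmic reticulum SNAREs Stx5a, Gosr2, Gosr1, Bet1, Bet1l and Stx18 had log2 fold changes between -0.095 and 0.090. The groups did not overlap for 3 of these 6, against 27.0% of all tested genes. Gosr2 was 43.9 ± 0.396 FPKM in CKO libraries, against 47.0 ± 0.815 FPKM in FLOX libraries, Stx5a 33.8 ± 0.504 and 31.7 ± 1.24 FPKM, and Bet1l 26.3 ± 0.337 and 24.8 ± 0.974 FPKM (SD). None of the 8 Qb- and Qc-SNAREs had an unadjusted p under 0.05, against 21.6% of all tested genes. The trans-Golgi and endosomal SNAREs Stx6, Stx16 and Vti1a overlapped as well, Stx6 with 20.6 ± 0.870 FPKM in CKO libraries, against 20.9 ± 1.25 FPKM in FLOX libraries (SD). The remaining regulators had lower levels and overlapping groups: the tomosyn gene Stxbp5 averaged 5.97 FPKM over all libraries, the amisyn gene Stxbp6 4.27 FPKM and Stxbp4 3.64 FPKM.

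Summed over all 50 members, FPKM came to 1373, 1269 and 1355 in CKO and 1440, 1481 and 1417 in FLOX libraries, 0.228% to 0.25% of each library's total. The CKO sums were all below the FLOX sums, and the mean differed by -7.86%. Vamp8, Snap23 and Stx7 made up 62.1% of that difference, and without them the mean of CKO differed from that of FLOX by -4.35%. The sum of the Snap25-type SNAREs, where Snap23 held most of the level, differed by -21.75%, and that of the Qa-SNAREs by -8.96%, both with groups apart. The sum of the 4 members that came in by name, Sec22a, Sec22c, Snap91 and Vamp9, went the other way (14.1%). It was 19.0, 18.2 and 21.2 FPKM in CKO libraries, against 16.5, 18.1 and 16.5 FPKM in FLOX libraries. The groups were barely apart, at 18.17 FPKM in CKO replicate 2 and 18.14 FPKM in FLOX replicate 3. Sec22a held most of the level and of the difference (2.14 FPKM), and Vamp9, near 0, had a lower mean in CKO libraries. The R-SNAREs differed by -7.13%, with sums of 516.3, 470.4 and 507.0 FPKM in CKO libraries, against 536.6, 557.1 and 514.7 FPKM in FLOX libraries, which overlapped. Levels spread over a wide range, with 10 members at a mean of at least 50 FPKM, 20 from 10 to 50, 13 from 1 to 10 and 7 below 1 FPKM. Within groups the members varied little, with a median coefficient of variation of 7.19% over the 43 tested, against 10.3% over all tested genes. These sets were not matched for level, and the part of level in this contrast was not tested.

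In the wider fusion machinery, 6 lists of other genes, limma called 0 of 52 tested genes, against 0.954% of all tested genes, with 7 at an unadjusted p under 0.05, against 21.6%. In the list of proteins that sort or bind VAMP7, 3 of 10 tested genes had an unadjusted p under 0.05 (1 higher, 2 lower), against 21.6% of all tested genes (12.6% higher, 8.94% lower). Rab38, a GTPase of lysosome-related organelles whose effector ANKRD27 binds VAMP7, measured 19.27, 25.88 and 24.04 FPKM in CKO libraries, against 15.65, 14.46 and 16.34 FPKM in FLOX libraries. All CKO values were above all FLOX values (log2 fold change 0.54, SE 0.12, limma adjusted p = 0.0639), and without CKO replicate 1 it passed (adjusted p = 0.0494, within a range of 0.0494 to 0.175 over 14 alternatives). Ap3s1, a subunit of the AP-3 adaptor that carries VAMP7 to late endosomes, measured 64.51, 54.47 and 57.81 FPKM in CKO libraries, against 68.57, 70.92 and 76.30 FPKM in FLOX libraries (log2 fold change -0.285, SE 0.09, limma adjusted p = 0.118), also with groups apart. The list's median was -0.08, and 7 of its genes were apart between groups, 3 higher and 4 lower, against 27.0% of all tested genes (15.5% higher, 11.4% lower).

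Granule docking genes of the Rab27 and Rab3 group had 3 of 10 tested members at an unadjusted p under 0.05, all with higher means in CKO, against 12.6% of all tested genes in that direction, and a median of 0.22. Rab3d, a GTPase of secretory granules, measured 26.48, 30.58 and 30.59 FPKM in CKO libraries, against 22.58, 25.01 and 19.71 FPKM in FLOX libraries (log2 fold change 0.37, SE 0.11, limma adjusted p = 0.104). Exph5, a RAB27 effector whose loss in humans causes skin fragility, measured 2.88, 4.08 and 4.14 FPKM in CKO libraries, against 2.63, 2.76 and 2.32 FPKM in FLOX libraries (0.39, SE 0.13, limma adjusted p = 0.147). Both had groups apart. The summed keratinocyte markers, none of them called, ran from 6804 to 9349 FPKM in these CKO libraries, against 5381 to 5961 FPKM in FLOX libraries. Krt1 and Krt10 differed most among these markers, and the part of the markers was not tested. Of 34 priming factors and calcium sensors 7 were tested, with a median of 0.14 and 1 at an unadjusted p under 0.05, against 21.6% of all tested genes. The smallest p values were those of the complexin gene Cplx2 (1.6, 1.47 and 1.55 FPKM in CKO, 1.06, 1.16 and 1.22 FPKM in FLOX libraries, log2 fold change 0.24, limma adjusted p = 0.185) and the synaptotagmin gene Syt12 (log2 fold change 0.21, limma adjusted p = 0.275).

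Tethers and other SNARE binders had 0 of 25 tested genes at an unadjusted p under 0.05, against 21.6% of all tested genes. Of the 9 exocyst genes, Exoc5 (log2 fold change -0.14, limma adjusted p = 0.418) and Exoc7 (-0.125, adjusted p = 0.461) had the smallest p, and the median was -0.06. Of the 8 HOPS and CORVET genes, which tether endosomes and lysosomes, these were Vps18 (-0.16, limma adjusted p = 0.327), with groups apart, and Vps8 (-0.13, adjusted p = 0.537), and the median was -0.04. The 8 tested genes of other SNAREs and SM proteins had a median of -0.004, with Scfd1 (-0.12, limma adjusted p = 0.506) and Scfd2 (0.13, adjusted p = 0.531) at the smallest p.

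**Figure D4:**
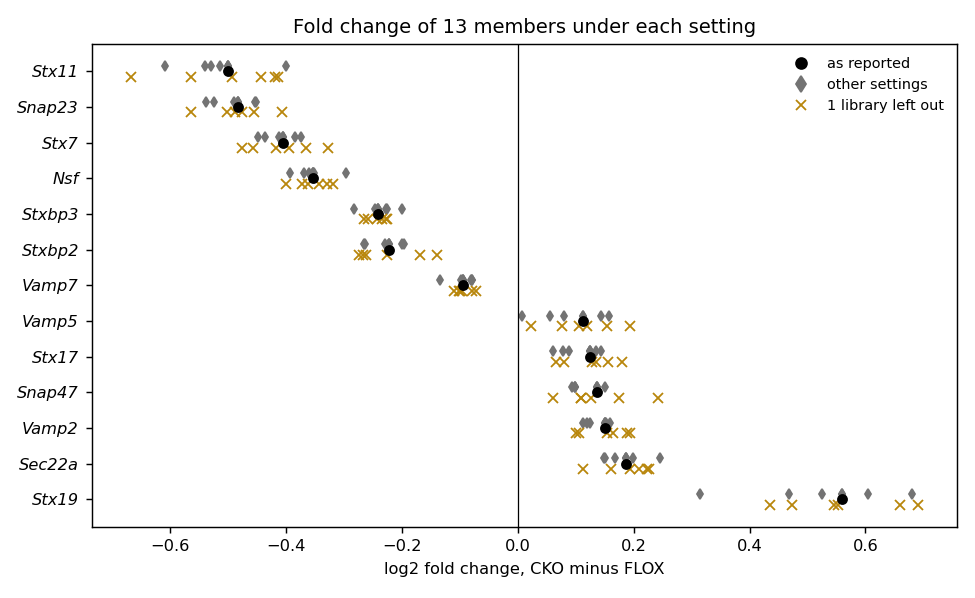
Log2 fold change, CKO minus FLOX, of the 13 members whose fold change is given, as reported (black circle), under other settings (grey diamonds) and with 1 library left out (crosses). Signs did not change under any setting tried, Snap23 ran from -0.565 to -0.407, and Vamp7 from -0.134 to -0.073.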

How the data were processed

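Messenger RNA of 3 CKO and 3 FLOX skin libraries was purified with oligo(dT) and read as single-end fragments, per the labels' protocols. HISAT is the aligner named in the submitters' processing notes; what counted the reads, and on which build and gene set, is not given in the sources used here. The table deposited by the authors holds FPKM values, per the file headers, with 2 decimals. Low values showed no steps from which reads could be recovered, so depth is unknown. The labels do not say whether libraries came from separate animals, so the p-values speak only of spread among these libraries, and that spread may be technical.

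A filter of 1 FPKM in 3 or more libraries left 12994 of 18939 genes. Their log2(FPKM + 1) values were tested two-sided with limma (3.58.1, R 4.3.3; intensity trend on), and p-values were adjusted over all of these genes by Benjamini-Hochberg at a 0.05 threshold. Fold changes on this scale understate the change of low genes. Intervals are limma's 95% intervals, not adjusted. The test was checked on simulated data with independent normal noise for each gene. That check does not cover a library that differs over many genes at once, so it does not vouch for the calls. The members, the gene lists and the tests were chosen with earlier results of these data known, and lists are described by counts and medians only. Fold changes are given for Vamp7, the 6 members with the most positive and the 6 with the most negative fold change, and the 2 genes of each pathway list with the smallest p. The alternatives tried were other pseudocounts (0.1 and 5), no filter or a stricter one (5 FPKM), scaling by median ratios, quantile normalization, limma without the intensity trend, a block for the replicate number, and each library left out in turn. All 50 members were found by NCBI Gene ID in the RefSeq table of GRCm38.p6, used for names and promoters. A few members count in the totals and are not reported here one by one.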

Additional observations from a re-analysis of the deposited data

How the results depend on the processing

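The call of 0 SNARE members held in 12 of 14 alternatives. It became 1 (Snap23, lower in CKO) with median-ratio scaling and without CKO replicate 1, so leaving out 1 library gave 0 to 1; for the pathway lists that range was also 0 to 1, the 1 being Rab38 without CKO replicate 1. All 24 other named fold changes kept their sign in every alternative that could test them, as did that of Vamp7, whose leave-one-out values ran from -0.11 to -0.073. The difference in the Vamp7 share of R-SNARE FPKM ran from -0.045 to 0.093 when 1 library was left out. The count of genes called over the whole table was far less stable: 124 as reported, 1 with no filter (3382 at an unadjusted p under 0.05), 187 with the filter at 5 FPKM, 0 after quantile normalization (2632 at an unadjusted p under 0.05), 32 with no intensity trend and 0 to 417 when 1 library was left out (417 without CKO replicate 5, 7 without CKO replicate 2, 3 without FLOX replicate 5, and 0 without FLOX replicate 2 or 3, with 1997 and 2399 at an unadjusted p under 0.05). As reported, the smallest limma adjusted p of any gene was 0.047, just under the threshold. The causes of these changes in count were not tested. With the replicate number as a block, 219 genes and 0 members were called, with 1 residual degree of freedom and no information from CKO replicate 1 or FLOX replicate 3. The numbers were not taken as pairs: the labels give no meaning to them, and only 2 and 5 are shared. Deviations of same-numbered libraries from their group means correlated at 0.132 for number 2 and -0.105 for number 5. Those of libraries with different numbers correlated at -0.392 to 0.229. With 3 libraries per group, these correlations cannot decide whether a number marks a shared batch. Depth is unknown, so its limit on genes near 1 FPKM, such as Vamp1, cannot be given.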

Other observations

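Members known from neurons were near the lower end of the table. Snap25, the SNARE of synaptic exocytosis, lay between 0.23 and 0.49 FPKM over the 6 libraries and Stx1a between 0.72 and 1.15 FPKM. Napb, the brain relative of Napa, measured 0.53, 1.04 and 0.67 FPKM in CKO and 0.30, 0.62 and 0.31 FPKM in FLOX skin. These groups overlapped, and none of these 3 genes reached the filter for testing. Snap91, an adaptor of synaptic endocytosis, lay between 0.17 and 0.47 FPKM, below the filter as well. The tomosyn relative Stxbp5l was listed at 0.01 FPKM or at 0, and Vamp9 at 0 in 4 of the 6 libraries. Sec22c, a tested relative of Sec22b, had overlapping groups. The summed FPKM of 6 axon markers ran from 8.27 to 15.75 in CKO and from 10.88 to 17.61 in FLOX libraries.

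Some members lie close to each other in the RefSeq annotation of GRCm38.p6. Vamp5 and Vamp8 have 1 gene between them, not protein-coding, and averaged 3.30 and 283.3 FPKM. Nsf and Gosr2 have 3 genes between them, 2 of them protein-coding. Both were lower in every CKO library than in any FLOX library, as were 11.4% of all tested genes. Their means differed by -22.8% for Nsf and -6.5% for Gosr2.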
